A study of Mus musculus with 12 samples.

Results

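The cytosolic ribosomal protein genes are the mouse genes that encode the protein parts of the ribosome outside mitochondria. They were chosen by symbol, as Rpl or Rps followed by a number, with Rpsa, Rplp0, Rplp1 and Rplp2 added and with names marked as pseudogenes and the Rps6k kinases left out. The rule found 89 of 55487 genes and used no measured value. Of these, 46 encode standard proteins of the large subunit and 31 of the small subunit. Another 6 are paralogues (Rpl3l, Rpl22l1, Rps27l, Rpl39l, Rpl7l1 and Rpl10l), and 6 carry a ribosomal protein symbol but are annotated as processed pseudogenes (Rpl32l, Rpl6l, Rps12l1, Rps3a2, Rps3a3 and Rps4l). RNA was sequenced from 12 whole right thoracic mammary fat pads of female C57BL/6 mice at postnatal day 84. All mice had been given folic acid, 6 libraries coming from mice at 5 mg/kg and 6 from mice at 1 mg/kg, and tissue was taken 4 weeks after the supplementation. No mice without supplementation were analysed here. The labels do not say that the libraries of a group were separate animals, so each p measures the spread between these samples, which may be technical.

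A ribosome is built from ribosomal RNA and a single copy of most ribosomal proteins, so a cell has to make these proteins in similar amounts. Their mRNAs begin with a run of pyrimidines, the terminal oligopyrimidine or TOP motif, through which the mTOR pathway and the binding protein Larp1 control how well they are translated. The mRNAs are abundant in cells that grow and divide, and also in lymphocytes. A mammary fat pad holds fat cells, epithelial ducts, vessels, muscle fibres from the body wall and often a lymph node.

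The region around the annotated start is shown for some members, because it carries a pyrimidine run in most of them. RefSeq windows (GRCm38.p6) matched 64 of the 89 members by symbol, with 76 annotated starts. Each line below gives 40 bases before and 20 bases after a start on the gene's strand, 5′ to 3′, with the longest run of C and T in capitals. The first lines are standard members, among them Rps27 and Rps15a with steep lymphoid slopes, and the last are Rpl3l, Rps27l and Rpl39l, the paralogues with the lowest slopes, each at the first start listed. Among windows examined but not printed, the longest run had 7 letters in the standard member Rpl12 (slope 0.17) and in the paralogue Rpl7l1. It had 10 letters in the paralogue Rpl22l1 and 14 in Rpl22 at its first start listed. The longest run in the printed Rpl3l window has 5 letters. The wider search described below, within 50 bases of a start, did find a run of at least 8 in Rpl3l.
Rps27 (chr3:90213629-90213688, minus strand): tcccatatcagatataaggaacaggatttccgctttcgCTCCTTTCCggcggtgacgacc
Rps15a (chr7:118116128-118116187, minus strand): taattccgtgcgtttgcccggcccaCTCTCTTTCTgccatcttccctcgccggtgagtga
Rps6 (chr4:86857348-86857407, minus strand): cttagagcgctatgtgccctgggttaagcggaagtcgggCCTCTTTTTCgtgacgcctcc
Rpl28 (chr7:4792925-4792984, plus strand): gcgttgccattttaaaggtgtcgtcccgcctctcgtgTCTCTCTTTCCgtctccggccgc
Rpl38 (chr11:114668540-114668599, plus strand): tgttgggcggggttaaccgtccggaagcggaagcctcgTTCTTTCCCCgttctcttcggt
Rplp2 (chr7:141447611-141447670, plus strand): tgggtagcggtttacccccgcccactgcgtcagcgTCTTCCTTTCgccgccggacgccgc
Rpl3l (chr17:24727786-24727845, plus strand): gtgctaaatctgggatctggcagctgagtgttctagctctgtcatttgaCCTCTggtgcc
Rps27l (chr9:66946046-66946105, plus strand): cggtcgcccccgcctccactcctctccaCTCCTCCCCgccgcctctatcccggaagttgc
Rpl39l (chr16:10170188-10170247, plus strand): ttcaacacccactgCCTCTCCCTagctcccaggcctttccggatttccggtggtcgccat
In Rps27 a run of 9 pyrimidines, in Rps6 a run of 10 and in Rpl28 a run of 11 spanned the annotated start. In Rps15a, Rps27l and Rpl39l the printed run ended before the annotated start. A run of at least 8 pyrimidines beginning with C, searched on the gene strand within 50 bases of a start, was found in 53 of the 64 members (82.8%) and in 32% of all 27025 genes of the table. The letters CTTTCC on the gene strand, which can lie inside such a run, were found in the same span in 29.7% of members and 5.43% of all genes. The letters CTCTTTC, which can overlap both, were found there in 18.8% of members and 1.62% of all genes. The letters CCGGAAG, which hold the core bound by ETS factors such as Gabpa, were searched on both strands from 250 bases before to 50 after the start and were found in 40.6% of members and 9.93% of all genes. The letters TATAAA, a core promoter element, were found on the gene strand in the 40 bases before the start in 1.56% of members, which is 1 gene, and in 2.78% of all genes. A gene with several starts counted once if any start matched. The pyrimidine run was found in 45 of the 54 members with a window whose level was higher with lymphoid level, in all 3 standard members with a window that did not pass that test, and in 4 of the 6 paralogues. These matches describe letters only.

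Libraries held 48.2 to 75.3 M gene-assigned reads (M, mega), of which mitochondrial ribosomal RNA took 39.2% to 59.5%, and 5.58% to 26.6% of all tallied reads fell outside genes. Levels are counts scaled to a common library size (CPM) with TMM factors, so they are not plain shares of reads. White adipocyte markers (summed 4134 to 15593 CPM over 10 genes) and luminal epithelial markers (109 to 678 CPM over 10 genes) were detected in all 12 libraries, and 10 skeletal muscle markers summed to between 16557 and 79207 CPM. The lymphoid level of a library is the mean log2 CPM of 12 B cell genes and 12 T cell genes, such as Ms4a1, Cd79a, Cd3e and Ccr7. No ribosomal protein gene enters it. It fell into 2 ranges, with 5 libraries between -1.14 and -0.32, 6 between 4.54 and 5.63, and 1 mg/kg replicate 3 between them at 3.0. Each dose had 3 libraries above 4. In bulk tissue, more cells of a type and more RNA per cell cannot be told apart.

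The ribosomal protein genes together took 6551 to 12895 CPM, or 0.434% to 1.72% of gene-assigned reads. The highest sum was in 1 mg/kg replicate 1, at 12895 CPM with a lymphoid level of 5.44, followed by 1 mg/kg replicate 5 at 11913 CPM and 5 mg/kg replicate 2 at 11559 CPM. The lowest was in 5 mg/kg replicate 6, at 6551 CPM with a lymphoid level of -0.32. The spread was shared by most members: of the 77 standard members, 59 had their highest CPM in 1 mg/kg replicate 1 and 54 their lowest in 5 mg/kg replicate 6. The same was not counted over all genes, so it may not be particular to the members. The ratio of a standard member's highest to its lowest library had a median of 2.04 and ran from 1.51 for Rps2 to 8.07 for Rpl24. The ratio of large to small subunit CPM was 1.40 to 1.46 in the 5 libraries of the low range, 1.43 in 1 mg/kg replicate 3, and 1.29 to 1.39 in the 6 above it. The small subunit genes thus took a larger part of the sum where the lymphoid level was high, and no test was run on this ratio.

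**Figure D1:**
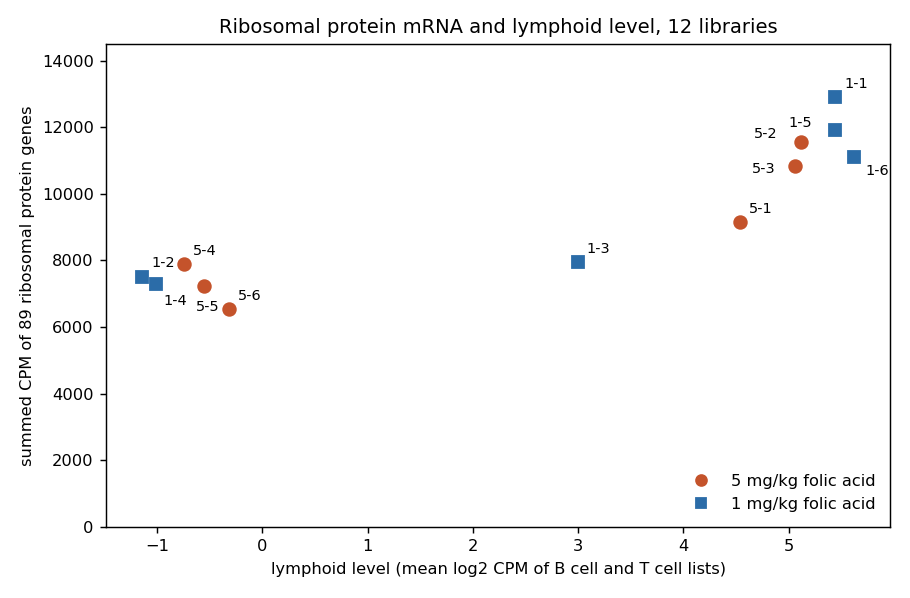
Summed CPM of the 89 genes (vertical axis, from 0) against the lymphoid level (horizontal axis, mean log2 CPM of the B cell and T cell lists) for 12 libraries, 1 point each, labelled by dose in mg/kg and replicate. The 6 libraries with a level above 4 lie between 9158 and 12895 CPM and the others between 6551 and 7966 CPM, with both doses in each range.

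Levels of different members were compared per kilobase of mRNA, using the median length of the annotated principal transcripts. Only reads assigned to a single gene enter these levels. The effect of reads left out for fitting several places, on this order and on the shares of paralogue pairs given below, was not tested. Rplp1, a protein of the stalk that recruits translation factors, had the highest mean, at 376 CPM per kilobase. Rps12 followed at 297, Rpl4 at 292 and Rps15 at 278 CPM per kilobase, and the median of the 77 standard members was 139. The paralogues were lower, from 45.5 CPM per kilobase for Rps27l and 15.9 for Rpl3l to 0.702 for Rpl39l. Rpl10l, a copy of Rpl10 known from the testis, had a single read in each of 2 libraries and none in the other 10. A filter on low counts left out Rpl10l, Rps12l1, Rpl6l and Rpl32l, whose highest CPM in any library was 0.329, in Rpl32l, so 85 members were tested.

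Most ribosomal protein genes were higher in the libraries with more lymphoid RNA. Of the 85 tested members, 71 were higher and 1, Rps4l, was lower with the lymphoid level by edgeR's quasi-likelihood test with Benjamini-Hochberg adjustment over 18647 genes, with the folic acid dose in the fit. In the same fit 22.7% of all tested genes were called higher and 17.4% lower. With library size as the only scaling, which raised the median slope of all genes to 0.055, 80 members were higher and none lower, and of all genes 5673 were higher and 114 lower, against 4239 and 3243 with TMM. The slope is the log2 change in a gene's level per log2 unit of lymphoid level. It was above 0 in 81 of 85 members and in 45.7% of all genes, with a median of 0.10 over the members and -0.011 over all genes. It was above 0 in all 77 standard members and ranged from 0.043 to 0.24 among them. A slope of 0.097, as in Rplp1, corresponds to a 1.40-fold higher level across 5 lymphoid units. All 71 members called higher were standard members.

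**Figure D2:**
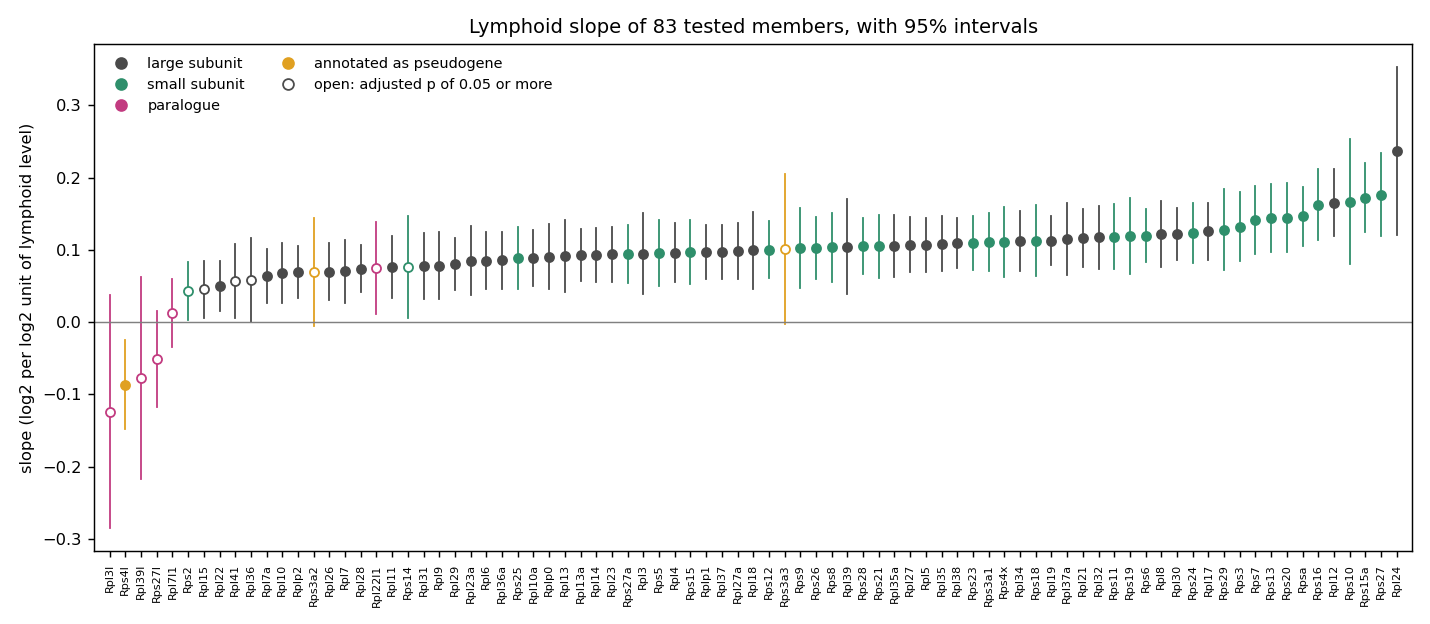
Slope on the lymphoid level (vertical axis, log2 per log2 unit) of 83 of the 85 tested members in rising order, with 95% intervals. Filled points passed an adjusted p of 0.05. Standard members of both subunits lie between 0.043 and 0.24, and Rpl3l, Rps4l, Rpl39l and Rps27l are the 4 members below 0.

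Among the small subunit genes, 28 of 31 were higher with lymphoid level and the median slope was 0.11. Rps27 (ENSMUSG00000090733), a small zinc-finger protein of this subunit, had 48.9, 75.1 and 124 CPM as its lowest, median and highest value at 5 mg/kg and 51.7, 96.5 and 161 CPM at 1 mg/kg. Its 3 highest libraries were 1 mg/kg replicates 1 and 6 and 5 mg/kg replicate 2, and the doses overlapped over most of the range. Its slope was 0.18 (SE 0.026, adjusted p = 0.000202), a 1.84-fold change across 5 lymphoid units. Rps15a, which lies on the small subunit body, followed with 56.5, 77.2 and 129 CPM at 5 mg/kg against 56.8, 96.7 and 151 CPM at 1 mg/kg, a slope of 0.17 (SE 0.022) and an adjusted p of 5.7e-05. Both genes were lowest in libraries of the low lymphoid range.

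Rps6, the protein phosphorylated by a kinase of the mTOR pathway, had 69, 90.7 and 131 CPM (lowest, median and highest) at 5 mg/kg and 77.2, 113 and 142 CPM at 1 mg/kg, and its slope was 0.12 (SE 0.017, adjusted p = 0.000123). Rpsa, also known as a laminin receptor, went from 202 to 396 CPM with a median of 266 at 5 mg/kg and from 217 to 443 CPM with a median of 334 at 1 mg/kg, with a slope of 0.15 (SE 0.019, adjusted p = 6e-05). In each the doses overlapped and the highest values were in libraries above 4 in lymphoid level. Rps3, which lines the mRNA entry and has been described in DNA repair, had a slope of 0.13 (adjusted p = 0.000483). Rps27a, made as a fusion with ubiquitin, had a slope of 0.094 (adjusted p = 0.00162), Rps25, used by some viral mRNAs to start translation, 0.089 (adjusted p = 0.00344), and the X-linked Rps4x 0.11 (adjusted p = 0.00182). Rps24, in which changes cause an inherited anaemia, had the second highest mean CPM of all members, 353, and a slope of 0.12 (adjusted p = 0.000284). Among those that did not pass, Rps2 had a slope of 0.043 (adjusted p = 0.0802) and Rps14 one of 0.077 (adjusted p = 0.0771).

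Among the large subunit genes, 43 of 46 were higher and the median slope was 0.094. Rpl4, near the exit tunnel of the large subunit, had the highest mean CPM of all members, with 317, 396 and 544 CPM (lowest, median and highest) at 5 mg/kg and 357, 477 and 586 CPM at 1 mg/kg. Its slope was 0.096 (SE 0.019, adjusted p = 0.00166), and the highest values were again in libraries of the upper lymphoid range. The stalk proteins were close to this value, with slopes of 0.091 in Rplp0 (adjusted p = 0.00449), 0.097 in Rplp1 (adjusted p = 0.000773) and 0.069 in Rplp2 (adjusted p = 0.00554). Rpl5 and Rpl11, which with the 5S RNA can bind Mdm2 and so stabilise p53, had slopes of 0.11 (adjusted p = 4e-04) and 0.077 (adjusted p = 0.00829).

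Rpl38, needed in mice for normal patterning of the skeleton, had 56.5, 75.7 and 104 CPM at 5 mg/kg against 63.2, 85.2 and 110 CPM at 1 mg/kg (lowest, median and highest), and a slope of 0.11 (SE 0.016, adjusted p = 0.00015). Rpl10a had a slope of 0.089 (adjusted p = 0.00196). Rpl17 was steeper, at 0.13 (adjusted p = 0.000152). Rpl15, Rpl41 and Rpl36 did not pass, with slopes of 0.045, 0.057 and 0.058 and adjusted p from 0.0652 to 0.102, so 6 of the 77 standard members were not called.

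Rpl24 had the highest slope of all, 0.24 (SE 0.054, adjusted p = 0.00408), but the lowest mean of the tested members, 0.312 CPM, with 0.101 CPM in 1 mg/kg replicate 2 and 0.814 CPM in 1 mg/kg replicate 6. Rps10 had a mean of 1.02 CPM and a slope of 0.17 (SE 0.04, adjusted p = 0.00553), and Rpl13a a mean of 6.13 CPM and a slope of 0.093 (adjusted p = 0.000828). These 3 are standard members, yet their values lay far below the 104 CPM that was the median of the 77. An exon of each overlaps another annotated gene, Gm28037 for Rpl24, RPS10-NUDT3 for Rps10 and Gm45713 for Rpl13a, and those genes had 0 reads in all 12 libraries. Reads that fit more than 1 gene were tallied apart, at 0.586% to 0.936% of reads, and their part in these low values was not tested. In all, 39 of the 89 members have an exon that overlaps another annotated gene.

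**Figure D3:**
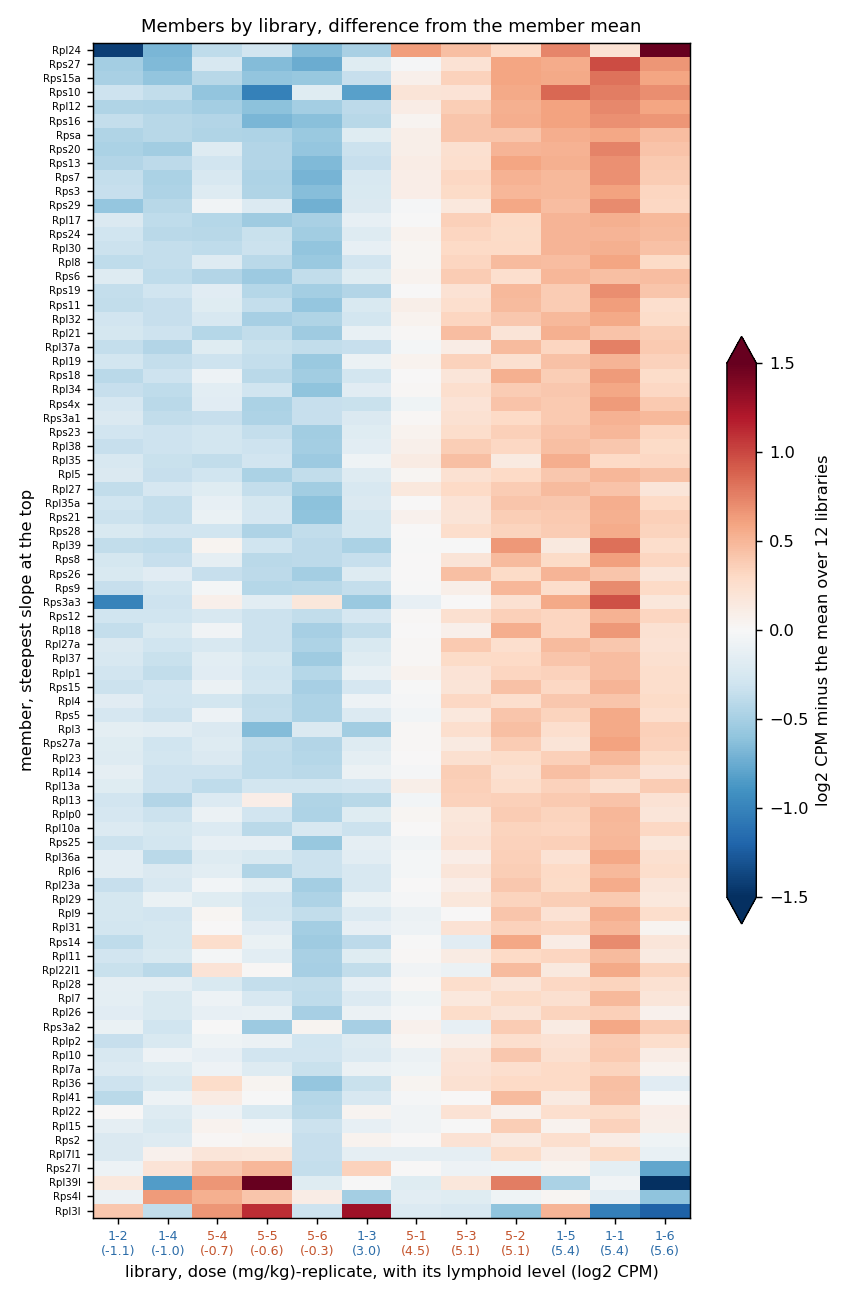
Log2 CPM of 83 of the 85 tested members minus each member's mean over 12 libraries (colour), with members in rows from the steepest lymphoid slope at the top and libraries in columns by rising lymphoid level (in brackets, log2 CPM). Colours end at 1.5 on either side. Most rows run from blue in the low range to red in the upper range, and 1 mg/kg replicate 3, at 3.0, is still blue in most rows.

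Slopes of the 5 tested paralogues ran from -0.12 in Rpl3l to 0.075 in Rpl22l1, and the last lay inside the range of the standard members. No test compared the paralogues with the standard members. None of the 5 passed by edgeR's quasi-likelihood test, 1 had an unadjusted p below 0.05 (Rpl22l1, which DESeq2 and limma-voom called higher), and their median slope was -0.051. With library size as the only scaling 2 of the 5 were called higher and the median was 0.016. Rpl3l (ENSMUSG00000002500) takes the place of Rpl3 in the ribosomes of skeletal and heart muscle. It had 12.5, 16.3 and 41.1 CPM (lowest, median and highest) at 5 mg/kg and 8.23, 20.1 and 46.1 CPM at 1 mg/kg, and a slope of -0.12 (95% interval -0.29 to 0.038, adjusted p = 0.197). Its 2 highest libraries, 1 mg/kg replicate 3 and 5 mg/kg replicate 5, also had the highest skeletal muscle levels, 12 and 11.5 log2 CPM, and its lowest, 1 mg/kg replicate 6, had the lowest muscle level, 9.37. Per length, Rpl3l made up 4.06% to 30.6% of the pair of Rpl3 and Rpl3l, with a median of 10.3%. Rpl3 itself had 94.2, 138 and 201 CPM at 5 mg/kg against 103, 154 and 218 CPM at 1 mg/kg, and a slope of 0.095 (adjusted p = 0.0117). Its lowest libraries were the same 2 in which Rpl3l was highest.

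Rps27l, a target of p53 that replaces Rps27 in part of the ribosomes, had 17.3, 21.7 and 31.2 CPM at 5 mg/kg against 12.9, 21.9 and 28.0 CPM at 1 mg/kg (lowest, median and highest). Its slope was -0.051 (95% interval -0.12 to 0.015, adjusted p = 0.193), and it made up 6.43% to 29.2% of the pair per length. Rpl22l1, the paralogue of Rpl22, a protein needed by developing T cells, had 4.68 to 9.19 CPM at 5 mg/kg against 4.99 to 9.77 CPM at 1 mg/kg. Its slope of 0.075 (adjusted p = 0.0564) lay above that of Rpl22, 0.050 (adjusted p = 0.0256), and the difference between the 2 was not tested. The call of Rpl22 ended without 5 mg/kg replicate 3 or 1 mg/kg replicate 1 or 4, and Rpl22l1 passed without 5 mg/kg replicate 3, 4 or 5 or 1 mg/kg replicate 3, with slopes of 0.044 to 0.062 and of 0.062 to 0.091 over the 12 fits. Rpl22l1 made up 13.4% to 21.5% of its pair per length. Rpl7l1, a factor of ribosome assembly, had a slope of 0.012 (95% interval -0.035 to 0.059), against 0.070 for Rpl7 (adjusted p = 0.0141). The slope of Rpl7l1 was 0.081 and passed (adjusted p = 0.0497) with library size as the only scaling.

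Rpl39l (ENSMUSG00000039209), known from the testis, was near the floor, at 0.125 to 1.31 CPM over the 12 libraries and 0.224% to 3.34% of its pair, with a slope of -0.078 (adjusted p = 0.342), against 0.10 for Rpl39 (adjusted p = 0.0165). Rps4l (ENSMUSG00000063171) is annotated as a processed pseudogene and was the member called lower. It had 3.29, 3.81 and 5.38 CPM at 5 mg/kg against 2.46, 3.45 and 5.83 CPM at 1 mg/kg (lowest, median and highest), and a slope of -0.087 (SE 0.028, adjusted p = 0.028). Its highest libraries, 1 mg/kg replicate 4 and 5 mg/kg replicates 4 and 5, were all in the low lymphoid range. Leaving out 5 mg/kg replicate 3 or 4, or 1 mg/kg replicate 4 or 6, ended this call, with slopes of -0.10 to -0.059 over all 12 such fits, and so did library size as the only scaling, no filter, reads outside genes or the adipocyte level as covariates, the linear lymphoid level and the upper lymphoid range alone. Reads shared with the parent genes went to the tally of multiply aligned reads, at 8.30% to 10.5% of reads, so levels of near-identical copies are uncertain.

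**Figure D4:**
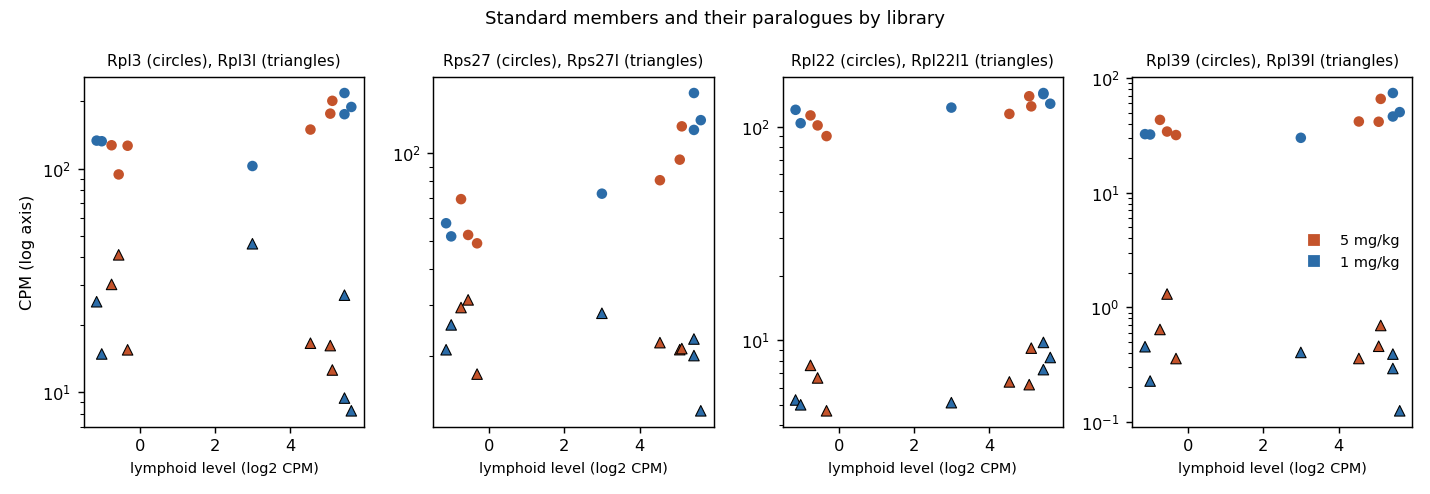
CPM on a log axis (vertical) against the lymphoid level (horizontal, log2 CPM) in 12 libraries for Rpl3 and Rpl3l, Rps27 and Rps27l, Rpl22 and Rpl22l1, and Rpl39 and Rpl39l. Circles are standard members and triangles paralogues, coloured by dose. The circles are highest at the right of each panel, while Rpl3l is highest at 3.0 and in the low range.

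The slope over 12 libraries rests on the contrast between the 2 ranges of lymphoid level. Within the 6 libraries above 4, no member of 86 passed by edgeR's quasi-likelihood test (0 at an unadjusted p below 0.05), and 0% of 19159 genes were called. The slopes there were above 0 in 83 of 86 members and in 54% of all genes, with a median of 0.35 over the members and 0.053 over all genes. Other cell types moved with the lymphoid level too. White adipocyte markers were lower in 8 of 10 (Adipoq slope -0.17, adjusted p = 0.000767), and none passed with library size as the only scaling. By dose they summed to 8083 to 12398 CPM at 5 mg/kg and to 4134 to 15593 CPM at 1 mg/kg. By lymphoid level they summed to 4134 to 9991 CPM in the 6 libraries above 4 and to 11239 to 15593 CPM in the low range. Fibroblast markers were lower in 6 of 7 and luminal epithelial markers in 3 of 10, against 17.4% of all genes. Basal epithelial and erythroid markers were each lower in 1 of 6, which is near that share. By edgeR none of 10 skeletal muscle and none of 7 brown adipocyte markers passed (1 and 0 at an unadjusted p below 0.05, with 1 muscle marker called lower by DESeq2 and none of either list by limma-voom). Lymph node stroma and venule markers were higher in 5 of 5 tested, with Ccl21a at 0 in all libraries, and macrophage markers were higher in 3 of 8, against 22.7% of all genes. Of the 8 macrophage slopes 5 were above 0 and 3 below, and DESeq2 called 2 higher and 1 lower. Of 7 endothelial markers 4 were lower and 1 higher. No fibroblast, luminal, basal or endothelial marker was called lower with library size as the only scaling, and 5 of the 7 endothelial slopes were above 0.

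With the white adipocyte level also in the fit, 30 members were called higher, against 8.73% of all genes, and none lower, against 1.24%. The slope was above 0 in 83 of 85 members, against 47.5% of all genes, with a median of 0.12. With the lymphoid CPM on a linear scale 78 members were called higher and none lower, against 25.9% and 21.1% of all genes, and the slope was above 0 in 81 of 85, against 46.6%. Copies of ribosomal protein genes marked as pseudogenes, which are not members, summed to 23.1 to 28.8 CPM in the low range and to 34.2 to 47.6 CPM in the upper range. The parts of single cell types in the members' slopes cannot be told apart in this design.

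Other genes of ribosome production were described from lists, each gene by the same fit, in which 22.7% of all genes were higher and 17.4% lower. Of 3 tested ribosomal proteins with other symbols, Fau (slope 0.14, adjusted p = 0.000214) and Rack1 (slope 0.11, adjusted p = 0.00128) were higher. Of 19 translation factors and related genes with TOP mRNAs, 7 were higher and none lower, with a median slope of 0.039. Eef1b2, an exchange factor for elongation, had a slope of 0.086 (adjusted p = 0.00173) and Npm1, a nucleolar chaperone, 0.081 (adjusted p = 0.00166). Of 8 snoRNA host genes 1 was higher, a share below that of all genes: Gas5, with a slope of 0.078 (adjusted p = 0.00371).

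Ribosome assembly genes were higher in 15 of 34 and lower in none, with a median of 0.040. Fbl, the methyltransferase of ribosomal RNA, had a slope of 0.15 (adjusted p = 3.02e-05), and Nop56, its partner, 0.13 (adjusted p = 9.77e-05). Genes of RNA polymerase I, which transcribes ribosomal RNA, were higher in 8 of 12, with a median of 0.053. Among 14 genes that control translation of these mRNAs, Myc was higher (slope 0.13, adjusted p = 0.00489) and Eif4ebp1, a repressor of translation (slope -0.13, adjusted p = 0.00206), and Tsc2, an inhibitor of mTOR (slope -0.045, adjusted p = 0.0337), were lower. Both shares, 1 of 14 higher and 2 of 14 lower, lay below those of all genes. Of the 14 slopes 6 were above 0 and 8 below, with a median of -0.016. With library size as the only scaling Eif4ebp1 had a slope of -0.064 that did not pass (adjusted p = 0.103), Tsc2 turned to 0.020 (adjusted p = 0.595), and 3 of the 14 were higher and none lower. That fit called 5787 of 18647 genes, most of them higher, so the share of the 14 lay below that of all genes. The call of Tsc2 also ended when any 1 of 9 libraries was left out, all but 5 mg/kg replicates 1 and 6 and 1 mg/kg replicate 3, with slopes of -0.049 to -0.038 over the 12 fits. With the white adipocyte level in the fit, Fau, Fbl and Nop56 passed, and Rack1, Eef1b2, Npm1, Gas5, Myc, Eif4ebp1 and Tsc2 did not. The mitochondrial ribosomal proteins, a separate set in the nucleus for another ribosome, were by edgeR higher in none of 77 and lower in 3 (3 lower by DESeq2, 2 by limma-voom, none higher by either), with slopes below 0 in 75 and a median of -0.045. With library size as the only scaling this direction turned, with slopes above 0 in 62 of 77. The cytosolic members' median of 0.10 lay above that of each of these lists except the 3 proteins with other symbols, whose median was 0.11.

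Levels of the ribosomal protein genes were also compared between the folic acid doses. The sum over the 89 genes was 8873 ± 2007 CPM at 5 mg/kg (mean ± SD, n = 6) against 9783 ± 2472 CPM at 1 mg/kg (n = 6). The lowest, median and highest sums were 6551, 8531 and 11559 CPM at 5 mg/kg against 7304, 9535 and 12895 CPM at 1 mg/kg, so the doses overlapped over most of their range. The lymphoid level was 2.18 ± 3.0 at 5 mg/kg and 2.89 ± 3.22 at 1 mg/kg (SD, n = 6 each). No member was called different between the doses. By edgeR's quasi-likelihood test and by limma-voom 0 of 85 passed. By DESeq2, run without the filter on low counts over 48208 genes, 0 of 89 passed. In each of the 3 tools 1 member had an unadjusted p below 0.05. In the edgeR fit 0% of 18647 genes were called and 1.93% had an unadjusted p below 0.05. No member's doses were separate in CPM, as they were in 0.0429% of all genes. The log2 fold change, positive when higher at 5 mg/kg, was below 0 in 74 of 85 members and in 52.8% of all genes, with a median of -0.13 over the members and -0.018 over all genes. Leaving out 1 library at a time gave medians of -0.23 (without 5 mg/kg replicate 2) to -0.021 (without 1 mg/kg replicate 1). Without the libraries with over 20% of reads outside genes, the median was -0.012 over the members and -0.013 over all genes. In that fit 53 of 85 members were below 0. Members vary together between libraries, so their shared sign is not a count of independent results.

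The gene with the smallest p was Rpl39l, with 0.358, 0.55 and 1.31 CPM (lowest, median and highest) at 5 mg/kg and 0.125, 0.342 and 0.454 CPM at 1 mg/kg. The doses overlapped, with 5 mg/kg replicate 5 alone above 1 CPM. Its log2 fold change was 1.00 (95% interval 0.16 to 1.85, unadjusted p = 0.0239, adjusted p = 0.943), so it did not pass. Rps4l (0.19) and Rps27l (0.13) came next among members with positive values, and Rpl22 (-0.16) and Rpl17 (-0.27) were among those with the smallest p on the negative side, each with an adjusted p of 0.943. Rpl17 had 152, 191 and 283 CPM at 5 mg/kg against 169, 255 and 319 CPM at 1 mg/kg. The doses overlapped in Rpl17, and its lowest values came from libraries with little lymphoid RNA. The median half-width of the members' 95% intervals was 0.44 log2 units, before any adjustment over genes.

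At equal lymphoid level the differences between the doses were smaller. With the lymphoid level in the fit, 0 of 85 members passed by edgeR's quasi-likelihood test, and none by DESeq2 or limma-voom. By edgeR 1 had an unadjusted p below 0.05 (Rpl39l, log2 fold change 0.93), by DESeq2 2 and by limma-voom 1, and 0% of 18647 genes were called. The median over the members was -0.039 and 69 of 85 were below 0, while the median half-width of the intervals was 0.25. Leaving out 1 library at a time gave medians of -0.090 (without 1 mg/kg replicate 3) to -0.0019 (without 1 mg/kg replicate 1, with 44 of 85 below 0), and library size as the only scaling gave -0.15. Rps27 moved from -0.34 without the lymphoid level to -0.15 with it, and Rpl24 from -0.25 to 0.037. With the lymphoid CPM on a linear scale in place of its log2, 59 of 85 members were above 0 with a median of 0.028, and within the 6 libraries above 4 in lymphoid level 66 of 86 were above 0 with a median of 0.048. The direction between the doses thus depends on these choices. Rpl3l had 0.012 without and -0.15 with the lymphoid level. Mitochondrial ribosomal protein genes lay on the other side, with log2 fold changes above 0 in 75 of 77 and a median of 0.24, and none passed by edgeR (0 at an unadjusted p below 0.05), DESeq2 or limma-voom. With library size as the only scaling 51 of the 77 were above 0.

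**Figure D5:**
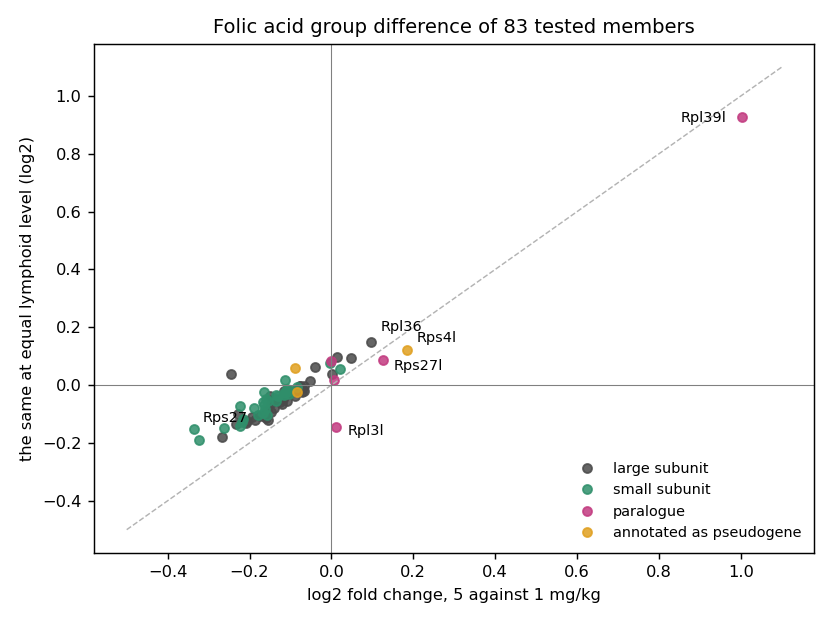
Log2 fold change of 5 against 1 mg/kg for 83 of the 85 tested members without the lymphoid level (horizontal axis) and with it in the fit (vertical axis). The dashed line marks equal values, and most points lie above it and nearer to 0 on the vertical axis, with medians over all 85 of -0.13 and -0.039.

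The slope on the lymphoid level itself was compared between the doses as an interaction. By edgeR's quasi-likelihood test 0 of 85 members passed, with 0% of 18647 genes called, and DESeq2 and limma-voom gave 0 members too. By edgeR Rps3a3, annotated as a pseudogene at a mean of 0.498 CPM, was the 1 member with an unadjusted p below 0.05 (0.0496), and DESeq2 and limma-voom each had 1 such member. The difference in slope, 5 minus 1 mg/kg, had a median of -0.0083 over the members and -0.007 over all genes. The members' median turned to 0.036 with ranks of the lymphoid level, to 0.013 without a filter and to 0.0075 with library size as the only scaling. It was also above 0 when 1 of 5 libraries was left out, at 0.0012, 0.022 and 0.0045 without 5 mg/kg replicate 1, 4 or 5 and at 0.0057 and 0.0055 without 1 mg/kg replicate 1 or 3, so its sign was not stable.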

How the data were processed

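RNA-seq was analysed in 12 mammary fat pad libraries, 6 per folic acid dose. The deposited values are the authors' unnormalized counts of reads in each gene. The submitters' processing notes name STAR and mm10 for alignment and HTSeq 0.6.1 for counting, and the STAR version, annotation and strand setting were not given in the sources used here. The kit named in the labels' protocols captures polyadenylated RNA without strand, so overlapping genes on opposite strands cannot be told apart. Lines that name no gene held 16.7% to 35.7% of tallied reads and stayed out of library sizes and tests. Symbols matched 55141 of 55487 IDs, and positions and overlaps came from GENCODE vM21.

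The test was the robust quasi-likelihood F-test of edgeR 4.0.16 in R 4.3.3, after TMM scaling and the filterByExpr filter, adjusted by Benjamini-Hochberg over all tested genes, with a threshold of 0.05. It was fitted for dose, for the slope on the lymphoid level with dose, and for their interaction. Log2 CPM used a prior count of 2, and intervals are 95%. The lowest chi-square per degree of freedom among 30 pairs of libraries within a group was 41.7, so none was a copy of another within sampling noise.

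The members and lists were chosen with earlier results of these data known. Genes to be named were a set of standard members and paralogue pairs, the 3 members with the smallest p in each direction of the dose fit, the 4 highest and 4 lowest slopes, and the 2 highest and 2 lowest mean CPM. Up to 4 genes were named per other list, by smallest p. Rps2, Rps14, Rpl12, Rpl15, Rpl41, Rpl36, Rpl13a, Rps12, Rps15, Rpl28, Rps3a3, Tsc2 and Eif4ebp1 were named after their values were seen where the rule did not name them. Some genes that the rule names are counted but are not reported here or drawn in the plots. Alternatives were DESeq2 1.42.0, limma-voom (limma 3.58.1), other scalings, filters and covariates, and leaving out each library. Added after seeing the data were the linear lymphoid level, the 6 libraries with a level above 4, the white adipocyte covariate, and leaving out libraries with over 20% of reads outside genes.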

Additional observations from a re-analysis of the deposited data

How the results depend on the processing

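The 71 higher and 1 lower member on the lymphoid slope, 72 in all, were 70 to 80 under other tools, scalings, filters and lymphoid measures, 70 to 76 when 1 library at a time was left out, and 78 with the linear lymphoid level. The count was 0 within the 6 libraries of the upper lymphoid range, where fewer samples enter and 0 of 19159 genes were called, and 30 with the white adipocyte level as a covariate, where 8.73% of all genes were called higher. The counts of members called between the doses, with or without the lymphoid level, and on the interaction were 0 in each alternative run. At equal lymphoid level, 6 of 18531 genes, none a member, were called without the libraries with over 20% of reads outside genes. The difference in mean log2 CPM of the members between the doses was -0.094, and it ranged from -0.17 to -0.007 without 1 library and reached -0.25 with library size as the only scaling, which lowered the median of all genes between the doses to -0.16. Of 1035 values of single named members under alternatives, 960 kept their direction and side of the threshold, 57 no longer passed, 12 passed newly and 6 changed sign. Those 6 were the log2 fold change of Rps27l between the doses (-0.033 with library size alone, -0.055 with reads outside genes as a covariate) and the slopes of Rpl39l (0.58 in the upper range), Rps27l (0.016 with library size alone, 0.030 with the adipocyte level) and Rps4l (0.021 with the adipocyte level), and the cause was not tested. No paired analysis was possible because the labels give no pairing, and replicate numbers only count libraries in record order. Members under 1 CPM, such as Rpl24, Rpl39l and Rps3a3, rest on few reads.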
